A study of Mus musculus with 3 samples.

Results

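Cholesterol and fatty acid synthesis genes were followed across 3 cultures of naive CD4+ T cells. The set held 39 named genes: sterol synthesis enzymes, fatty acid synthesis enzymes, the regulators of SREBP, and genes of sterol sensing, efflux and transport. A gene was read from the probe set whose platform annotation gave exactly that symbol, taking the probe set with the highest mean where there were several. That gave values for 37 of the 39 genes, out of 19935 genes with such a probe set. Acat2 and Nr1h2 had none, so no expression value is given for them. The cells came from wild-type C57BL/6 mice 8 weeks old and were cultured with IL-21, with IL-6 plus TGFb1 (the pair commonly used to obtain Th17 cells), or with medium and vehicle. The sources used here give no dose, time in culture, antigen receptor stimulus or number of mice. Each culture was measured on 1 array, so there are 3 arrays, no replicates and no test, and each difference compares 2 arrays. As neither IL-6 nor TGFb1 was given alone, their parts cannot be told apart.

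Cholesterol is built from acetyl-CoA through mevalonate, farnesyl diphosphate, squalene and lanosterol. The SREBP transcription factors switch on the enzymes of this route and those of fatty acid synthesis when membrane sterol is low, and the Insig proteins hold SREBP and its escort Scap back when sterol is plentiful. The LXR nuclear receptors sense oxidised sterols and switch on efflux pumps. Dividing T cells draw on both syntheses for membrane, and sterol intermediates are known ligands of the Th17 factor RORgt.

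The deposited values are linear probe set intensities. Differences are given as log2(intensity + 1) of the first culture named minus the second. A gene was compared where its highest intensity over the 3 arrays reached 187, the median of all values, which kept 11003 genes and 36 of the 37 members. Array medians were 182 with IL-21, 188 with IL-6 plus TGFb1, and 191 with medium, but the 75th percentile was 812 with IL-21, 794 with IL-6 plus TGFb1, and 750 with medium. Bright genes therefore lay slightly higher on the IL-21 array as deposited. Many values were exactly equal on different arrays, which puts small differences at 0. For 474 genes with 2 bright probe sets, the gap between them had a median of 0.07 and a 95th percentile of 0.41 in IL-21 minus medium, 0.07 and 0.37 in IL-6 plus TGFb1 minus medium, and 0.06 and 0.35 in IL-21 minus IL-6 plus TGFb1. Most member differences were no larger than these upper gaps, so single small values carry little weight.

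All 7 markers of CD4 T cells with a probe set (Cd3d, Cd3e, Cd3g, Cd4, Cd28, Cd5 and Il7r) were above 187 on every array. Their summed intensity was 32781 with IL-21, 33567 with IL-6 plus TGFb1, and 29730 with medium. The markers did not move together. In IL-6 plus TGFb1 minus medium, Il7r was at 0.89, Cd28 at 0.51, Cd5 at 0.44, Cd3d at 0.16 and Cd3g at 0.10. Cd4 was at -0.17 and Cd3e at -0.05. The summed intensity of 3 B cell markers lay between 561 and 581, that of 5 myeloid markers between 551 and 566, and that of 3 NK cell markers between 186 and 294. The NK range came from Klrd1, at 98.1 with IL-21, 173 with IL-6 plus TGFb1, and 66.0 with medium. Of the CD8 markers, Cd8b1 was at 731 with IL-21, 616 with IL-6 plus TGFb1, and 810 with medium, while Cd8a was below 187 on all arrays. No marker was at 0, since an array always gives some signal, and the part of other cells in the results was not tested. In bulk RNA, fewer cells of a type and less RNA per cell cannot be told apart. The 11 proliferation genes with a probe set had a median difference of 0.07 in IL-21 minus medium, 0.09 in IL-6 plus TGFb1 minus medium, and 0.01 in IL-21 minus IL-6 plus TGFb1.

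**Figure D1:**
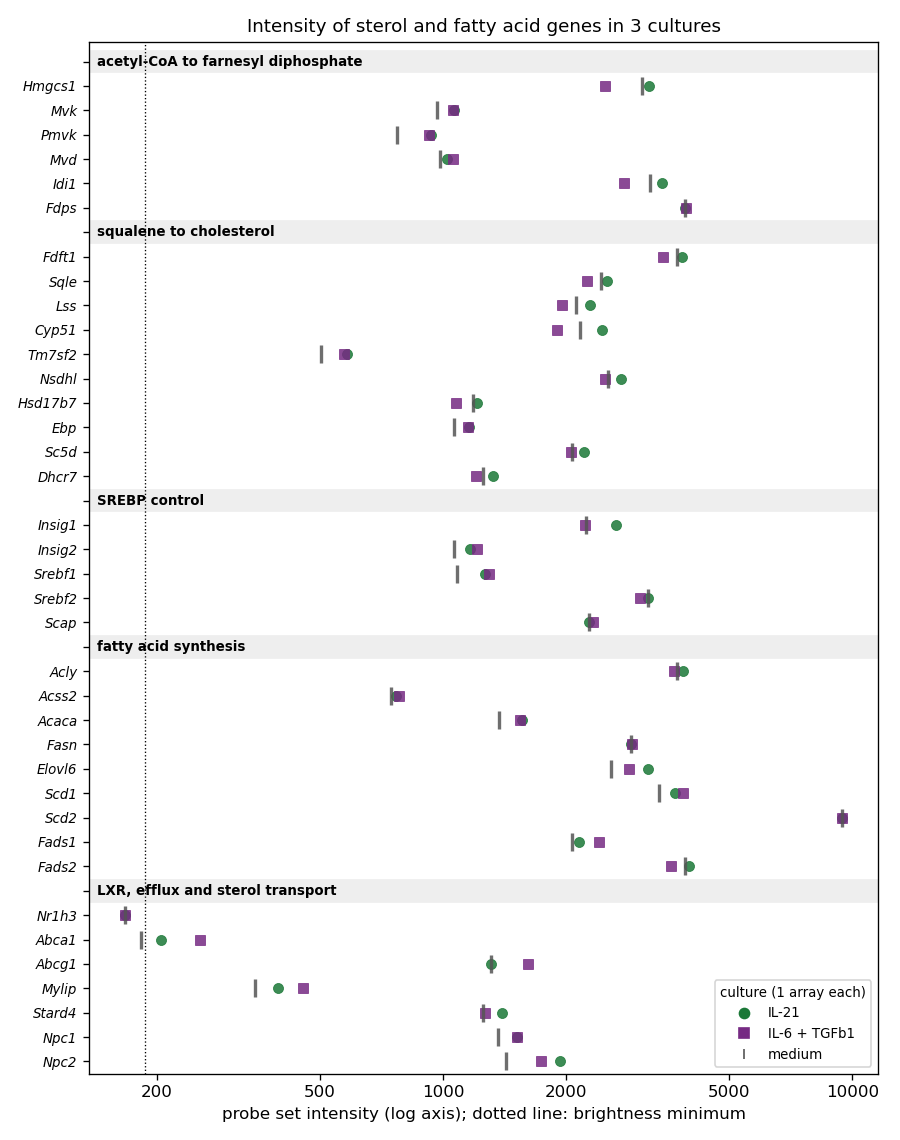
Probe set intensity (log axis) of the 37 measured members in the IL-21, IL-6 plus TGFb1 and medium cultures, 1 array each, grouped by role, with the brightness minimum of 187 as a dotted line. For Hmgcs1, Idi1 and most squalene-to-cholesterol enzymes the square of IL-6 plus TGFb1 lies leftmost, while for Abca1, Abcg1 and Mylip it lies rightmost.

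The genes of this set differed little between cultures. No member was past 2-fold in any comparison, where 0.591% of compared genes were past it in either direction in IL-21 minus medium, 1.04% in IL-6 plus TGFb1 minus medium and 0.464% in IL-21 minus IL-6 plus TGFb1. A smaller fold was therefore used, 25% higher or 20% lower, which is a log2 difference of 0.32 in either direction and is called the smaller fold here. It was passed by 5 members in some comparison: Npc2, Abca1, Mylip, Hmgcs1 and Cyp51. With IL-21 against medium, 1 of 36 members passed it (2.78%), against 11.8% of all compared genes. With IL-6 plus TGFb1 against medium, 2 passed it (5.56%), against 12.3% of all. With IL-21 against IL-6 plus TGFb1, 2 passed it (5.56%), against 5.06% of all. All 5 of these were on the higher side of their comparison. The shares lie near or below the background, so the set was not rich in genes past the smaller fold. What varied was the direction of small differences, and it varied by role.

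The sterol synthesis enzymes were mostly dimmest in the culture with IL-6 plus TGFb1. The array of that culture was the lowest of the 3 for 10 of 16 enzymes, against 22.2% of all compared genes. Since 15 of the 16 enzymes are bright, the same was counted over the 5617 genes that reached the 75th percentile of all values, 785: it was 30.1% of them. The 10 enzymes were Hmgcs1 and Idi1, 2 of the 6 up to farnesyl diphosphate (33.3%), and 8 of the 10 from squalene onward (80%). Those 8 were Fdft1, Sqle, Lss, Cyp51, Nsdhl, Hsd17b7, Sc5d and Dhcr7. The share in the early part was thus near that of bright genes. For the 16 enzymes the count was 9 with arrays centred on their medians and 10 after quantile normalization. Over all compared genes it was 2440 of 11003 as deposited, 2662 of 11003 with centred arrays and 3030 of 10983 after quantile normalization.

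In the early part of the route, Hmgcs1, which makes HMG-CoA, had an intensity of 3182 with IL-21, 2486 with IL-6 plus TGFb1, and 3058 with medium. Its log2 difference was 0.06 in IL-21 minus medium, -0.30 in IL-6 plus TGFb1 minus medium and 0.36 in IL-21 minus IL-6 plus TGFb1. The IL-6 plus TGFb1 culture thus stood apart, with the other cultures close together. Idi1, the isopentenyl diphosphate isomerase, followed the same order at 3431 with IL-21, 2762 with IL-6 plus TGFb1, and 3208 with medium. Its difference of 0.31 in IL-21 minus IL-6 plus TGFb1 was just short of the smaller fold, as was that of its second probe set, 0.317. The neighbouring enzymes did not follow this order. Mvk, mevalonate kinase, was at 1066 with IL-21, 1056 with IL-6 plus TGFb1, and 965 with medium. Pmvk, the next kinase of the route, was at 933 with IL-21, 922 with IL-6 plus TGFb1, and 774 with medium. Both kinases were lowest with medium, and for Pmvk the differences from medium were 0.27 with IL-21 and 0.25 with IL-6 plus TGFb1. Mvd, the decarboxylase after them, differed from medium by 0.05 with IL-21 and 0.10 with IL-6 plus TGFb1. Fdps, which makes farnesyl diphosphate, had 3892 with IL-21, 3929 with IL-6 plus TGFb1, and 3892 with medium, and so hardly varied.

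From squalene onward the order was more uniform. All 10 enzymes were above 0 in IL-21 minus IL-6 plus TGFb1, against 44.7% of all compared and 52.0% of bright genes. After quantile normalization 8 were, without Tm7sf2 and Ebp, against 42.6% of all. With centred arrays 10 were, against 70.9% of all. The median difference of the 10 enzymes as deposited was 0.14, where all compared genes had a median of 0.00. Cyp51, the lanosterol demethylase, had the highest difference of all members in this comparison, 0.37, at an intensity of 2448 with IL-21, 1895 with IL-6 plus TGFb1, and 2164 with medium. The medium culture lay between the treated ones. Lss, which closes squalene epoxide to lanosterol, had the same order at 2283 with IL-21, 1950 with IL-6 plus TGFb1, and 2112 with medium, a difference of 0.23 between the treated cultures. Sqle, squalene epoxidase and a rate-limiting step, was at 2516 with IL-21, 2250 with IL-6 plus TGFb1, and 2436 with medium. For Sqle the IL-21 value lay close to medium, with a difference of 0.05. Fdft1, squalene synthase, had a difference of 0.15 between the treated cultures, and 0.11 in its second probe set. Hsd17b7, a sterol ketone reductase, was at 0.17, Dhcr7, the reductase that yields cholesterol, at 0.14, Nsdhl, a sterol dehydrogenase, at 0.13, and Sc5d, a sterol desaturase, at 0.10. These were small gaps in the same direction.

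Tm7sf2, a sterol reductase, and Ebp, a sterol isomerase, went another way. Tm7sf2 had 584 with IL-21, 574 with IL-6 plus TGFb1, and 503 with medium. Ebp had 1158 with IL-21, 1150 with IL-6 plus TGFb1, and 1061 with medium. Both were lowest with medium and nearly level between the treated cultures, as Mvk and Pmvk were.

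Counted over the 16 enzymes, 15 were above 0 and 0 below in IL-21 minus medium, with a median of 0.10, against 59.8% of all compared genes above 0 with a median of 0.04. Among the bright genes 65.5% were above 0. In IL-6 plus TGFb1 minus medium 6 were above and 10 below 0, with a median of -0.04, against 56.3% of all compared and 57.7% of bright genes above 0. In IL-21 minus IL-6 plus TGFb1, 14 were above and 2 below 0, with a median of 0.14, against 44.7% of all compared and 52.0% of bright genes above 0. The comparisons share arrays and are not separate evidence. Signs of such small values depend on the scaling. As deposited, 11.6% of all compared genes were exactly at 0 in IL-21 minus medium and 13.0% in IL-21 minus IL-6 plus TGFb1. Such ties lower the share of all genes above 0. After quantile normalization 12 of 16 enzymes were above 0 in IL-21 minus medium, where 45.8% of all genes were. In IL-21 minus IL-6 plus TGFb1 it was 10 of 16, where 42.6% were. With centred arrays the counts were 16 of 16, where 82.2% of all genes were above 0, and 15 of 16, where 70.9% were. Between the treated cultures the median was 0.11 after quantile normalization and 0.18 with centred arrays.

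**Figure D2:**
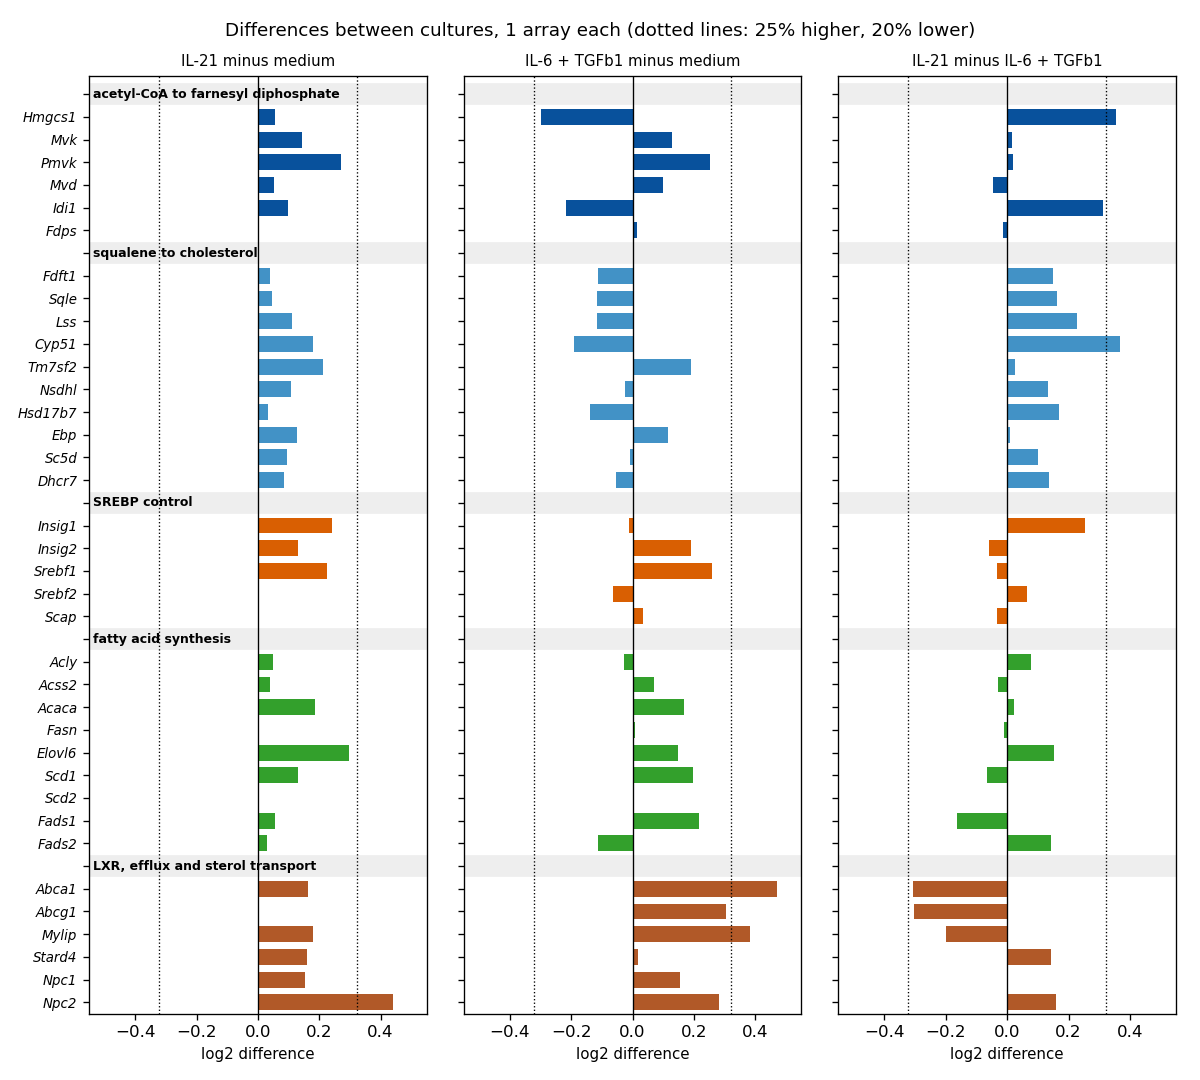
Log2 difference of each of the 36 compared members in the 3 comparisons, 1 bar per gene, with the smaller fold (0.32) as dotted lines and roles in colour. In the right panel Cyp51 (0.37) and Hmgcs1 (0.36) pass the line upward, while Abca1 (-0.31) and Abcg1 (-0.30) point downward and stay just short of it.

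Promoters were set beside these values because the enzymes are textbook SREBP targets. RefSeq promoter windows on GRCm38.p6, running from 250 bases before to 50 bases after a start site, were found for 30 of the 39 genes, Acat2 and Nr1h2 among them, with 39 windows in all. The 5 windows shown belong to the members with the highest differences in IL-21 minus IL-6 plus TGFb1, chosen after these were seen, and capitals mark matches to the sterol regulatory element TCACNCCAC or to the CCAAT box, which binds NF-Y, a partner of SREBP. Both strands were searched, so a CCAAT box can read ATTGG, and no marked match overlapped another.
Cyp51, chr5:4104648-4104947, minus strand: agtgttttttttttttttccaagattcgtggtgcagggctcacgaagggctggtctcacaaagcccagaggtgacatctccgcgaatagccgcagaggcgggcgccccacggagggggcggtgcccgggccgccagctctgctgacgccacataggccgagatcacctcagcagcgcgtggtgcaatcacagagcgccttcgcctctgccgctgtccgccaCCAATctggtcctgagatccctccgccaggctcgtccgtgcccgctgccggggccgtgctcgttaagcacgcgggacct
Hmgcs1, chr13:119690101-119690400, plus strand: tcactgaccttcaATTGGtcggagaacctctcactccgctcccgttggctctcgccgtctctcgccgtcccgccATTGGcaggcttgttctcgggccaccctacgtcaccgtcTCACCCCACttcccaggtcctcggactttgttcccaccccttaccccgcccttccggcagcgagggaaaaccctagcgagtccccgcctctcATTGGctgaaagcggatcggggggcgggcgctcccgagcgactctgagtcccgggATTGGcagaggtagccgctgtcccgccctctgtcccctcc
Idi1, chr13:8885356-8885655, plus strand: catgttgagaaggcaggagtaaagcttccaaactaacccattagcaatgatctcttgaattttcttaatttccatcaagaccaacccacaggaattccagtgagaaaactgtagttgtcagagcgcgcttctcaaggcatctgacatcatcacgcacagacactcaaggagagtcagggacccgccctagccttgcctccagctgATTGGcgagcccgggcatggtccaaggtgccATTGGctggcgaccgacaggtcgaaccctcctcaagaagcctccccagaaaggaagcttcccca
Insig1, chr5:28071162-28071461, plus strand: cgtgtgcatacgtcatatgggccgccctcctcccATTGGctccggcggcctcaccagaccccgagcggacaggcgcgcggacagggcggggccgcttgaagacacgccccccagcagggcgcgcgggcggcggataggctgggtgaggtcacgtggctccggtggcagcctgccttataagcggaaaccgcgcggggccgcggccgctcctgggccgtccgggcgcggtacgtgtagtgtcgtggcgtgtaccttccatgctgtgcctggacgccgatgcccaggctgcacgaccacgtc
Lss, chr10:76531355-76531654, plus strand: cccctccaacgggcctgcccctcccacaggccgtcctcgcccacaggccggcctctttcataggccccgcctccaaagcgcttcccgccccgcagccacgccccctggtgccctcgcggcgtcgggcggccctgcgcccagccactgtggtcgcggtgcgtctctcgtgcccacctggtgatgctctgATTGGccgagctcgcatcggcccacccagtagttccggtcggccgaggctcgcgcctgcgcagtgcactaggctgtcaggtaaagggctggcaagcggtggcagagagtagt

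Hmgcs1 was the only member with a match to TCACNCCAC, starting 137 bases before its start site, and its window also held 4 CCAAT boxes. The element was in 1 of 39 member windows (2.56%) and in 1.24% of all 32851 windows. Idi1 had 2 CCAAT boxes, at 45 and 14 bases before the start site, while Cyp51, Insig1 and Lss had 1 each. CCAAT boxes were in 13 of 17 windows of the sterol synthesis enzymes (76.5%), in 59.0% of all member windows and in 37.4% of all windows. The GC box GGGCGG, which binds Sp1, was in 82.4% of the enzymes' windows, 71.8% of all member windows and 35.7% of all windows. It was in 80% of the windows of the SREBP regulators, so it was not particular to the enzymes. Windows of fatty acid synthesis had it in 50%, as did those of LXR, efflux and transport. The 17 windows belong to 14 genes, Acat2 among them, so some genes count more than once. All windows include those of genes not expressed here, and the shares over expressed genes alone were not counted. A match describes the letters and is not a measured binding site, and sterol regulatory elements can be spelled in other ways.

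The regulators of SREBP did not share a pattern. Insig1, which retains SREBP in the endoplasmic reticulum and is itself an SREBP target, was at 2648 with IL-21, 2220 with IL-6 plus TGFb1, and 2239 with medium. It was highest with IL-21, by 0.24 over medium and 0.25 over IL-6 plus TGFb1. Insig2, its relative, was at 1161 with IL-21, 1210 with IL-6 plus TGFb1, and 1061 with medium, so that it was lowest with medium. Srebf1, which encodes the SREBP of fatty acid synthesis and is also an LXR target, was at 1268 with IL-21, 1297 with IL-6 plus TGFb1, and 1084 with medium. Its differences from medium were 0.23 with IL-21 and 0.26 with IL-6 plus TGFb1. Srebf2, which encodes the SREBP of sterol synthesis, had 3166 with IL-21, 3028 with IL-6 plus TGFb1, and 3166 with medium. Scap, the escort, had 2266 with IL-21, 2320 with IL-6 plus TGFb1, and 2266 with medium. Transcripts of Srebf2 and Scap were thus nearly level, with equal values with IL-21 and medium.

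The 9 fatty acid synthesis genes did not follow the sterol enzymes. Their median was 0.05 in IL-21 minus medium, 0.07 in IL-6 plus TGFb1 minus medium and 0.00 in IL-21 minus IL-6 plus TGFb1. In the last, 4 lay above 0 (44.4%) and 4 below, where 44.7% of all compared genes lay above. All compared genes had medians of 0.04, 0.02 and 0.00 in the same order, so the group lay near the background. Elovl6, which lengthens palmitate, had the highest difference from medium with IL-21, 0.30, at 3165 with IL-21, 2850 with IL-6 plus TGFb1, and 2574 with medium. Acaca, acetyl-CoA carboxylase, was at 1561 with IL-21, 1538 with IL-6 plus TGFb1, and 1370 with medium, and its second probe set kept medium lowest at 732. Both genes were lowest with medium. Scd1, a stearoyl-CoA desaturase, was at 3681 with IL-21, 3853 with IL-6 plus TGFb1, and 3363 with medium. Its paralog Scd2 had exactly 9433 on all arrays, and it was the only compared member equal on all 3.

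Fads1 and Fads2, neighbouring desaturases of polyunsaturated fatty acids, went opposite ways. Fads1 was at 2148 with IL-21, 2404 with IL-6 plus TGFb1, and 2067 with medium, the highest value being with IL-6 plus TGFb1. Fads2 was at 3985 with IL-21, 3609 with IL-6 plus TGFb1, and 3906 with medium, the lowest being with IL-6 plus TGFb1. Between the treated cultures the differences were -0.16 for Fads1 and 0.14 for Fads2. Fasn, the fatty acid synthase, had 2876 with IL-21, 2895 with IL-6 plus TGFb1, and 2876 with medium. Acly, which makes cytosolic acetyl-CoA from citrate, was at 3856 with IL-21, 3657 with IL-6 plus TGFb1, and 3729 with medium. Acss2, which makes it from acetate, was at 767 with IL-21, 783 with IL-6 plus TGFb1, and 746 with medium. These synthesis steps varied by less than 0.10 in all comparisons.

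The efflux pumps and Mylip were highest with IL-6 plus TGFb1, where most sterol enzymes were lowest. Abca1, the pump that loads cholesterol onto apolipoproteins, was at 205 with IL-21, 254 with IL-6 plus TGFb1, and 183 with medium. It was the highest member difference in IL-6 plus TGFb1 minus medium, 0.47, and -0.31 in IL-21 minus IL-6 plus TGFb1. Its medium value was below the brightness minimum, so its differences are poorly measured. Abcg1, the pump that loads cholesterol onto HDL, was brighter, at 1306 with IL-21, 1612 with IL-6 plus TGFb1, and 1306 with medium. Its difference was 0.30 in IL-6 plus TGFb1 minus medium and exactly 0 in IL-21 minus medium. Mylip, a ubiquitin ligase that lowers uptake of lipoprotein cholesterol, was at 395 with IL-21, 454 with IL-6 plus TGFb1, and 348 with medium, a difference of 0.38 in IL-6 plus TGFb1 minus medium. That value was 0.32 after quantile normalization, just short of the smaller fold. All 3 are textbook LXR targets. Of the LXR genes themselves, Nr1h3, which encodes LXR alpha, had 167 on every array, below the brightness minimum, and was not compared. Nr1h2, which encodes LXR beta, had no usable probe set, so its level in these cells is not known here. The share of all genes highest with IL-6 plus TGFb1 was not counted, so the order of these 3 genes has no background beside it. Of all compared genes, 56.3% were above 0 in IL-6 plus TGFb1 minus medium. In IL-21 minus IL-6 plus TGFb1, 42.3% were below 0. Of the other genes listed below, the LXR targets Apoe and Lpcat3 were not highest with IL-6 plus TGFb1. Apoe was highest with medium, at 361 with IL-21, 376 with IL-6 plus TGFb1, and 431 with medium. Lpcat3 was at 3370 with IL-21, 3366 with IL-6 plus TGFb1, and 3146 with medium.

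The genes that move sterol inside cells had another order. Npc2, the soluble lysosomal cholesterol carrier, was at 1934 with IL-21, 1732 with IL-6 plus TGFb1, and 1424 with medium, and its 0.44 was the highest member difference in IL-21 minus medium. Npc1, the membrane protein that takes cholesterol from Npc2, was at 1513 with IL-21, 1513 with IL-6 plus TGFb1, and 1359 with medium. Both lysosomal genes were lowest with medium. Stard4, a cytosolic sterol carrier and an SREBP target, was at 1397 with IL-21, 1266 with IL-6 plus TGFb1, and 1250 with medium. It was highest with IL-21, as Insig1 was. Over the 6 compared genes of LXR, efflux and transport the median was 0.16 in IL-21 minus medium, 0.29 in IL-6 plus TGFb1 minus medium and -0.10 in IL-21 minus IL-6 plus TGFb1. The last value was 0 with no brightness filter and turned to 0.07 with the filter at the 75th percentile, which leaves out Abca1 and Mylip, so it rests on the dimmer genes.

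Windows of Abca1 and Mylip, the efflux-group genes with the lowest differences in IL-21 minus IL-6 plus TGFb1 among those with a window, are shown for contrast with the sterol enzymes, with the same capitals.
Abca1, chr4:53159846-53160145, minus strand: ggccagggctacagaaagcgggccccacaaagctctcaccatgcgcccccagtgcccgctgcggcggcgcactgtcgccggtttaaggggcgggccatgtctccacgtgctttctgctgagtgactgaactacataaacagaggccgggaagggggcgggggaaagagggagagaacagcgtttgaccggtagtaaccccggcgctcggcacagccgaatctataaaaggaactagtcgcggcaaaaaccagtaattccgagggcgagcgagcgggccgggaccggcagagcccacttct
Mylip, chr13:45389492-45389791, plus strand: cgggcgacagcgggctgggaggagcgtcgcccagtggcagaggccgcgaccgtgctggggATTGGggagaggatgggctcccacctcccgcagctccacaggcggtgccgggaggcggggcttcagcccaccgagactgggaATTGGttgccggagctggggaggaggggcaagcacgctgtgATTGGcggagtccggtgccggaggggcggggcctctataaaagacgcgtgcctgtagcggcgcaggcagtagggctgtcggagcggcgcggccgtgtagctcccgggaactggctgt

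The Abca1 window held neither a CCAAT box nor the element TCACNCCAC, and the Mylip window held 3 CCAAT boxes. The GC box GGGCGG, left unmarked, was in the Abca1 window 2 times and in the Mylip window 1 time. The LXR element, AGGTCA repeated after a spacing of 4 bases, matched 0 of the 39 member windows and 5 of all 32851. No match says only that these letters are not in the window. This exact spelling was in 0.015% of all windows, too few for 0 of 39 to set the members apart. Other spellings of the LXR element were not searched, so the Abca1 and Mylip windows may hold one.

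**Figure D3:**
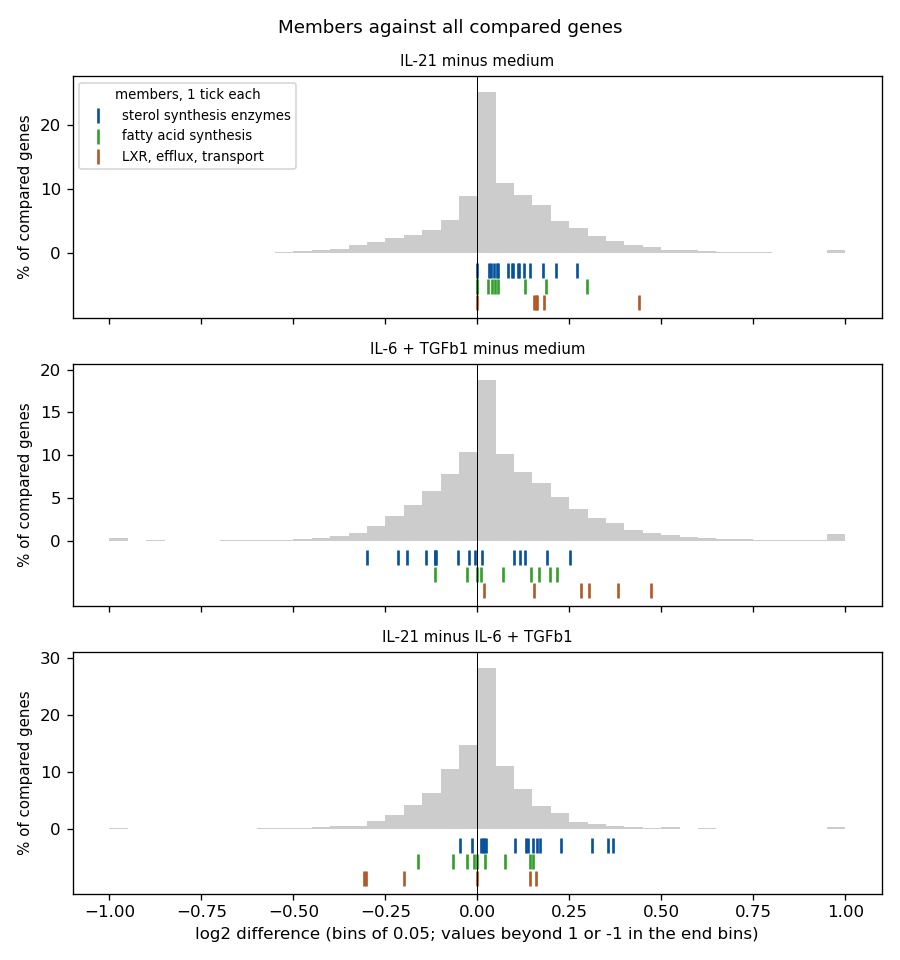
Log2 differences of all 11003 compared genes (grey bars, % of genes per bin) with ticks for sterol synthesis enzymes, fatty acid synthesis genes and genes of LXR, efflux and transport, 1 panel per comparison. In IL-21 minus IL-6 plus TGFb1 the sterol ticks lie mostly right of 0 (median 0.14), the efflux pumps lie left of it, and all ticks stay within the spread of all genes.

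Beyond the set, 60 other genes of sterol and fatty acid handling were listed, of which 40 were compared. The smaller fold was passed by 3 of them in IL-21 minus medium, all higher, by 4 in IL-6 plus TGFb1 minus medium, 3 higher and 1 lower, and by 2 in IL-21 minus IL-6 plus TGFb1, both higher. These are 7.5%, 10% and 5% of the 40 genes, at or below the 11.8%, 12.3% and 5.06% of all compared genes. Their medians were 0.06, 0.01 and 0.03 in that order, close to those of all compared genes (0.04, 0.02 and 0.00). Vldlr, a lipoprotein receptor, was at 277 with IL-21, 196 with IL-6 plus TGFb1, and 244 with medium, a difference of 0.50 in IL-21 minus IL-6 plus TGFb1. Hacd1, a dehydratase of fatty acid elongation, had the same order at 448 with IL-21, 315 with IL-6 plus TGFb1, and 410 with medium, a difference of 0.51. Abca7, a relative of Abca1, shared the order of the efflux pumps, at 498 with IL-21, 611 with IL-6 plus TGFb1, and 472 with medium. So did Fabp5, a fatty acid binding protein, at 3084 with IL-21, 3668 with IL-6 plus TGFb1, and 2707 with medium.

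Rnf145, an endoplasmic reticulum ubiquitin ligase (0.33), Cpt1a, which brings fatty acids into mitochondria for oxidation (0.34), and Elovl7, a fatty acid elongase (0.47), were the genes past the smaller fold in IL-21 minus medium. Elovl7 was dim, at 223 with IL-21, 223 with IL-6 plus TGFb1, and 160 with medium. Among sterol genes of this list, Msmo1, the sterol methyl oxidase after Cyp51, was at 2899 with IL-21, 2600 with IL-6 plus TGFb1, and 2634 with medium. Lbr, a sterol reductase of the nuclear envelope, was at 3945 with IL-21, 3427 with IL-6 plus TGFb1, and 3813 with medium. Both were lowest with IL-6 plus TGFb1 and were named after their values were seen. Erg28, a scaffold of the sterol demethylation enzymes, went the other way, at 6447 with IL-21, 6639 with IL-6 plus TGFb1, and 6509 with medium. Dhdds, which makes dolichol precursors from farnesyl diphosphate, had 1555 on every array. In the whole list the IL-6 plus TGFb1 array was lowest for 14 of 40 genes (35%). The share was 22.2% of all compared genes and 30.1% of bright genes, and the list holds dim genes as well as bright ones.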

How the data were processed

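RNA of 3 cultures was measured on 1 array each after fragmentation and biotin labelling with an Affymetrix whole-transcript kit, per the labels' protocols. The deposited values were intensities for 28815 probe sets, with the unit read from the values. No source used here states how they were summarized or normalized. The build mm8 is listed in the submitters' processing notes but was not needed. The 21780 probe sets with exactly 1 annotated gene symbol were used, and the one with the highest mean stood for a gene.

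Differences of log2(intensity + 1) were taken without further normalization (Python 3.11.15, pandas 2.3.3, numpy 2.4.6). Genes were compared if their highest intensity reached the median of all values. The calculation was tested on simulated data. No test could be run on single arrays, and their number limits the precision. The plan allowed log2 or linear values, and the table was linear.

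All members with values are named. Other pathway genes are named where past the smaller fold in a comparison, except Msmo1, Lbr, Erg28, Dhdds, Apoe and Lpcat3. The members, lists, folds and motifs were chosen with earlier results of these data known. Promoter sequences are from RefSeq (GRCm38.p6).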

Additional observations from a re-analysis of the deposited data

How the results depend on the processing

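Other scalings, pseudocounts, low-value floors, brightness filters, probe set rules and a fold of 1.5 were tried. Of 852 member differences recomputed, 18 changed sign, none of them past the smaller fold. All 18 came from the scalings: 7 of 108 values with centred arrays and 11 of 108 after quantile normalization. The brightness filters and the fold of 1.5 leave the differences as they are and could not change a sign. A difference of exactly 0 as deposited was never counted as a change. Of the 852, 11 changed sides of the fold used, 5 of these only because the fold was 1.5. At 1.5-fold the counts of higher members were 0 in all 3 comparisons. Centring each array on its median moved the median of all compared genes in IL-21 minus medium to 0.10, against 0.036 as deposited, and 3 members were then at least 25% higher. Member medians became 0.17 in IL-21 minus medium, 0.048 in IL-6 plus TGFb1 minus medium and 0.066 in IL-21 minus IL-6 plus TGFb1. The sterol enzymes then had 0.16 and -0.016 in the comparisons of IL-21 and of IL-6 plus TGFb1 against medium. The fatty acid genes had 0.11 in IL-21 minus medium and 0.043 between the treated cultures, where the LXR, efflux and transport genes had -0.057.

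Quantile normalization gave member medians of 0.038 in IL-21 minus medium, 0.016 in IL-6 plus TGFb1 minus medium and -0.0032 between the treated cultures. Sterol enzymes had 0.037 and -0.081 in the comparisons with medium, fatty acid genes 0.011, 0.013 and -0.021 in the 3 comparisons, and LXR, efflux and transport genes 0.093 in IL-21 minus medium. Then 1 member was higher in IL-6 plus TGFb1 minus medium, and 1, Abcg1 (-0.34), was lower in IL-21 minus IL-6 plus TGFb1. With the brightness filter at the 75th percentile, Abca1 and Mylip were no longer compared, 0 members were higher in IL-6 plus TGFb1 minus medium, and the member median there was 0.011. Between the treated cultures it was 0.070, with 0.0104 for fatty acid genes and 0.071 for LXR, efflux and transport genes, which were at 0 with no filter. The counts by sign were added after the data were seen: the enzymes above 0 between the treated cultures were 10 to 15, and those lowest with IL-6 plus TGFb1 were 9 or 10. No paired analysis was possible because each group has 1 array.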
